A study of Drosophila melanogaster with 27 samples.

Results

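The genes described are 10 cell-surface adhesion genes of Drosophila melanogaster, namely both teneurins (Ten-m and Ten-a), the 6 Kekkons (kek1 to kek6), and caps and trn. They were chosen by name, at a time when the covered sequence of Ten-m, kek5 and Ten-a in the peak list was already known, so the values below describe them and no test was made. All 10 were found among the 13922 protein-coding genes of chromosome arms 2L, 2R, 3L, 3R, 4 and X. The data are CUT&RUN profiles of histone H4 monomethylated at lysine 20 (H4K20me1), a method that sequences the DNA cut loose by a nuclease tethered to the antibody. The peak list used here compares Oregon-R wild-type wing imaginal discs profiled with the anti-H4K20me1 antibody (n = 3 libraries) with Oregon-R discs profiled without primary antibody (n = 3). Each library pooled 20 discs from female wandering larvae of instar 3 raised at 25 °C, and the wing disc is the larval epithelium that gives rise to the wing and notum.

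The series also holds 21 libraries of 8 genotypes that were not analysed here. Those were Set8null discs (Set820/20), Set820 discs with a Set8wt or a Set8rg transgene, and deltaHisC discs with a histone array of 12 copies that was HWT, K20A or K20R, or HWT or K20R together with His4rnull. The list gives 1 set of peaks for the Oregon-R discs, with no value per library, so neither depth nor spread between libraries is known. In it, "covered" means lying in a peak, and the covered share is the percentage of a gene body, from its lowest to its highest annotated base, that lies in peaks. A gene without a peak may still carry signal under the authors' threshold, which is not given in the sources used here. Peaks do not measure expression and cannot check the cell types in the disc. Peaks were found in 9 of 12 genes that mark wing disc epithelium, although not in vg, wg or pnr. They were found in 1 of 6 marker genes of neurons, 3 of 6 of myoblasts and muscle, 1 of 4 of hemocytes and fat body, and 1 of 3 of trachea. Here 1 bp of overlap was enough, and by that rule 38.3% of all protein-coding genes had a peak. Of the longest 10% of these genes, 51.9% did. At least 50% of the body was covered in 3 of the 12 epithelial markers, compared with 18.3% of all protein-coding genes. The same held for 0 of 6 markers of neurons, 1 of 6 of myoblasts and muscle, 1 of 4 of hemocytes and fat body, and 0 of 3 of trachea. The median covered share was 16.3% in the epithelial markers and 0.238% in those of myoblasts and muscle. It was 0% in those of neurons, of hemocytes and fat body, and of trachea. No marker list was matched for length.

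H4K20me1 is laid down by Set8 and in animal genomes is often found over the bodies of transcribed genes. Teneurins are large transmembrane proteins with EGF-like and YD repeats that bind each other across cell contacts, and in the fly they match synaptic partners. Kekkons carry leucine-rich repeats and an immunoglobulin domain outside the cell. Kek1 binds the EGF receptor and restrains its signalling, Kek5 acts on BMP signalling and cell junctions, and Kek6 is a receptor for a neurotrophin at the neuromuscular junction. Capricious (caps) and Tartan (trn) are paired leucine-rich repeat proteins that set cell affinity at the dorsal-ventral boundary of the wing disc and guide axons to their targets.

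Of the 10 genes, 6 had a peak (Ten-m, Ten-a, kek1, kek5, caps and trn) and 4 had none (kek2, kek3, kek4 and kek6). Over all protein-coding genes, 38.3% had a peak, where 1 bp of overlap counted. At least 50% of the body was covered in 4 of the 10 (Ten-m, kek1, kek5 and trn), and in 18.3% of all protein-coding genes. The share with a peak differed between length classes. Among the longest 10% of protein-coding genes, which include 7 of the 10, 51.9% had a peak, compared with 4 of those 7. The share was 56.5% in the length decile of kek1 and 49.5% in that of trn and kek4. The members' count is not far from these backgrounds. By family, both teneurins had a peak, as did caps and trn, and 2 of 6 Kekkons. These counts are small, and no difference between the families was tested.

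Together the 10 gene bodies span 707 kb, of which 314 kb (44.4%) lay in 48 peaks, none shared between members. Ten-m, kek5 and Ten-a held 91.5% of this covered sequence. The median covered share was 32.7% over the 10 genes and 0% over all protein-coding genes, which are mostly shorter. It was 27.1% over the 7 of the 10 in the longest decile, compared with 0.515% over all genes of that decile. Since Ten-m, kek5 and Ten-a were chosen with their covered sequence known, these medians cannot be read as a trait of the group. By covered share the order was Ten-m (95.7%), kek1 (86.4%), kek5 (83.2%), trn (52.5%), caps (38.4%) and Ten-a (27.1%), followed by the 4 genes at 0%. No replicate spread can be attached to these values, so neighbours in the order, such as kek1 and kek5, cannot be ranked beyond what the list shows.

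**Figure D1:**
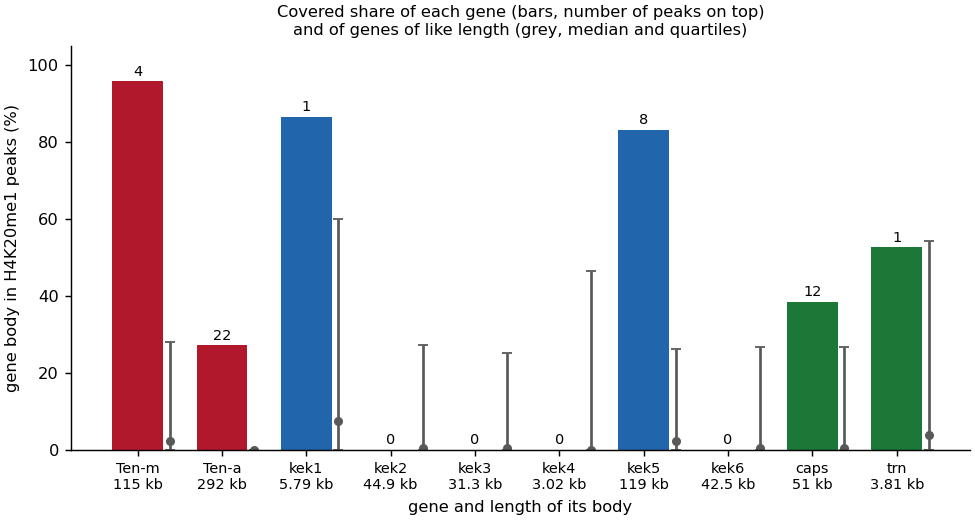
Share of each gene body in H4K20me1 peaks (bars, %), with the number of peaks on top and gene length under each name; red, blue and green mark teneurins, Kekkons, and caps with trn. Grey points and whiskers give the median and quartiles of protein-coding genes within 25% of the same length; Ten-m, kek1 and kek5 stand above 80% while kek2, kek3, kek4 and kek6 are at 0.

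The teneurin genes both had peaks, but of different extent. Ten-m (3L 22293044 to 22407863, 115 kb) carried 4 peaks of 37.9, 16.0, 28.9 and 35.7 kb, separated by gaps of only 1.35 to 1.70 kb, and just 4913 bp of its body lay outside them. The smallest gap between any neighbouring peaks in the list was 1050 bp and the median 2650 bp. With the gene cut into 10 equal parts, the covered share was between 85.2% and 100% in each. No protein-coding gene had more covered sequence than Ten-m, at 109907 bp.

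When peaks were joined over gaps of up to 2 kb, the 4 peaks of Ten-m became 1 domain of 123 kb, the widest of 4195 such domains on the arms. Its first peak began 8543 bp outside the gene. There it covered all of IleRS, the isoleucyl-tRNA synthetase gene that lies 233 bp away, and 96.2% of Hem, which encodes a subunit of the actin-regulating WAVE complex. CG32450 and 4 long noncoding RNA genes lie within Ten-m, all of them 97.4% to 100% covered, and a peak there cannot be assigned to a single gene. Without the sequence shared with CG32450, the covered share of Ten-m was 95.7%. On the other side the last peak stopped 413 bp inside the body, and the next peak lay 60.1 kb away.

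Ten-a (X 12043698 to 12335214), at 292 kb the longest of the 10, had 22 peaks, of which 4 were 150 bp wide, the narrowest width in the list. Its peaks had a median width of 1350 bp, compared with 32275 bp in Ten-m. The widest, 27.1 kb and 18.2 kb, stood far above the others, the next of which was 5.30 kb. All 22 lay in the high-coordinate part of the gene. The 161 kb at the low-coordinate end (55.2% of the gene) held none, whereas from the first peak to the high end the gene was covered to 60.5%. In 10 equal parts of the gene, the covered share was 0% in the first 5 and 47.7%, 50.6%, 64.3%, 78.5% and 29.7% in the others.

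The peak-free part of Ten-a also holds 8 nested protein-coding genes (Uch-L5R, Muc11A, CG34323, moon, CG15734, CG11356, CG2750 and CG1924). The covered part holds 2, CG32655 (10.6% covered) and CG45603 (100%). Strand and exons were not used, so it is not known here which end of Ten-a is the start. The number of peaks in Ten-a depended on how they were counted, with 10 after joining over 2 kb and 13 when peaks under the median width of 1100 bp were dropped.

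**Figure D2:**
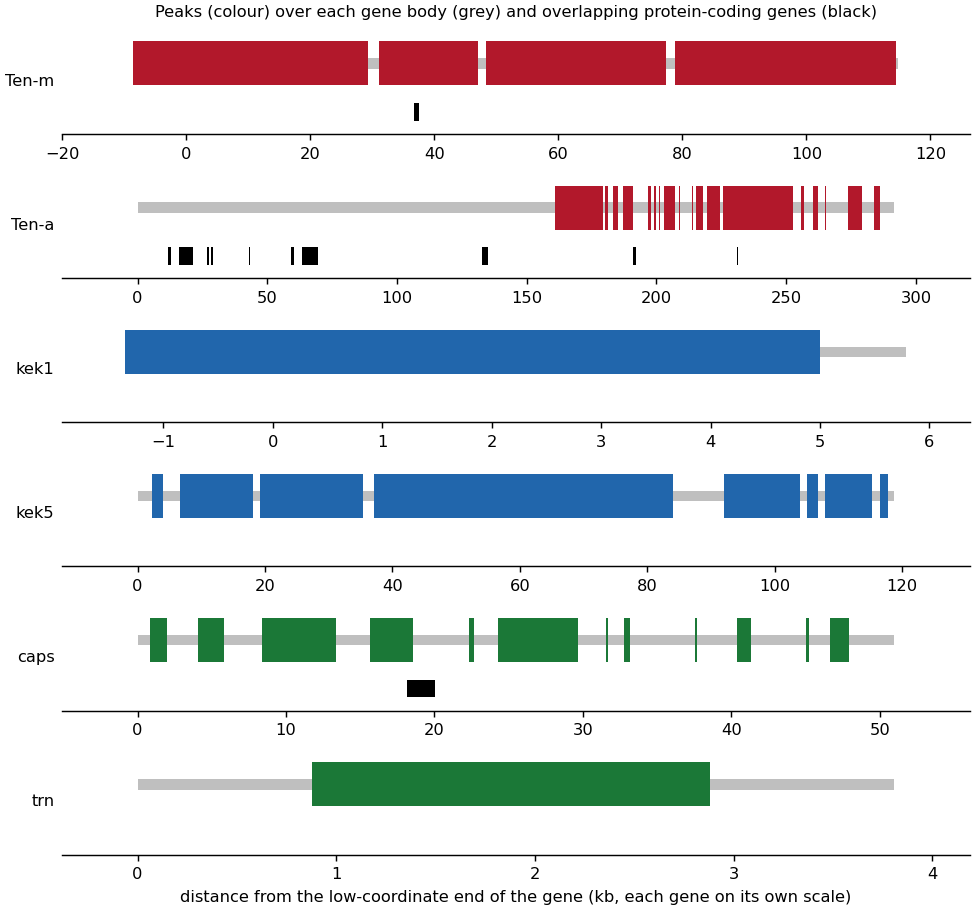
Peaks (coloured blocks) along the bodies (grey bars) of the 6 genes that had any, in kb from the low-coordinate end, each gene on its own scale, with overlapping protein-coding genes in black. Ten-m is covered nearly from end to end except for 3 short gaps, the peaks of Ten-a start 161 kb into the gene, and trn has its peak in the middle.

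Among the Kekkons, the EGF receptor antagonist gene kek1 and the BMP pathway modulator gene kek5 were the ones with peaks, and both were covered over most of their length. In kek5 (X 19353181 to 19471914, 119 kb), 8 peaks covered 98750 bp, a covered amount exceeded only by Ten-m. Its widest peak, 47.0 kb, ranked 4 in the whole list and made up 47.6% of the covered sequence of the gene. The others measured 1.35 to 16.2 kb. The longest uncovered stretch within the gene was 7.95 kb, and no other annotated gene overlaps kek5, so its peaks belong to no other gene body. Joined over 2 kb, they formed 3 domains, the widest of which (77.4 kb) ranked 4 among the 4195.

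At 5.79 kb, kek1 (2L 12817000 to 12822787) is far shorter than kek5. A single peak of 6.35 kb began 1349 bp outside the gene at its low-coordinate end and stopped 787 bp short of the high end, covering 5001 bp. No other gene overlaps kek1. This peak was isolated: the nearest peaks lay 93.05 kb and 153 kb from it. Of 6900 peaks with a neighbour on both sides, 33 (0.478%) had both neighbours at least 93.05 kb away.

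The 4 Kekkon genes without a peak differ in length and surroundings. The genes kek2 (2L 11581937 to 11626883, 44.9 kb), kek3 (2L 15552723 to 15583978, 31.3 kb) and kek6 (3R 31622136 to 31664646, 42.5 kb) are long. About the same share of protein-coding genes within 25% of their lengths had a peak: 52.0% for kek2, 51.4% for kek3 and 52.3% for kek6. The short kek4 (2L 13212335 to 13215350, 3.02 kb) has a like-length share of 46.2%.

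Both kek2 and kek3 lie in wide peak-free regions. That of kek2 ran for 278.5 kb from peak to peak and held 25 other protein-coding genes. That of kek3 ran for 226.8 kb and held 19. Of 6906 gaps between neighbouring peaks on the arms, 37 (0.536%) were at least as wide as the first and 62 (0.898%) as the second. A gap around an uncovered gene is at least as long as that gene, whereas the median gap was 2650 bp. Each gap also counts once, however many genes it holds. These percentages therefore do not say how rare it is for a gene to lie in such a region. The same limit holds for the shares of gaps given below for kek6 and kek4. The genes Mst33A, Acp33A and spag4 are nested in kek2.

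Peaks lay closer to kek6 and kek4. The 100 kb on either side of kek6 were covered to 30.4% and 32.5%, compared with 0% to 3.95% beside kek2 and kek3. The nearest peaks lay 7235 bp and 5004 bp from kek6, which leaves a peak-free span of 54.75 kb, and 7.57% of the gaps in the list were at least as wide. Its neighbour Zmynd8, 4.82 kb away, was covered to 52.0%, while pasha, a microRNA processing gene that overlaps its low-coordinate end, had no peak. The nearest peaks to kek4 lay 2.48 kb and 3.90 kb from it, and its neighbour CG9426, 939 bp away, was covered to 18.5%. The 100 kb on either side of kek4 were covered to 21.4% and 6.85%, and 23.6% of the gaps in the list were at least as wide as its peak-free span of 9.40 kb. The 4 genes remained without a peak when the gene bodies were widened by 1 kb at each end.

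**Figure D3:**
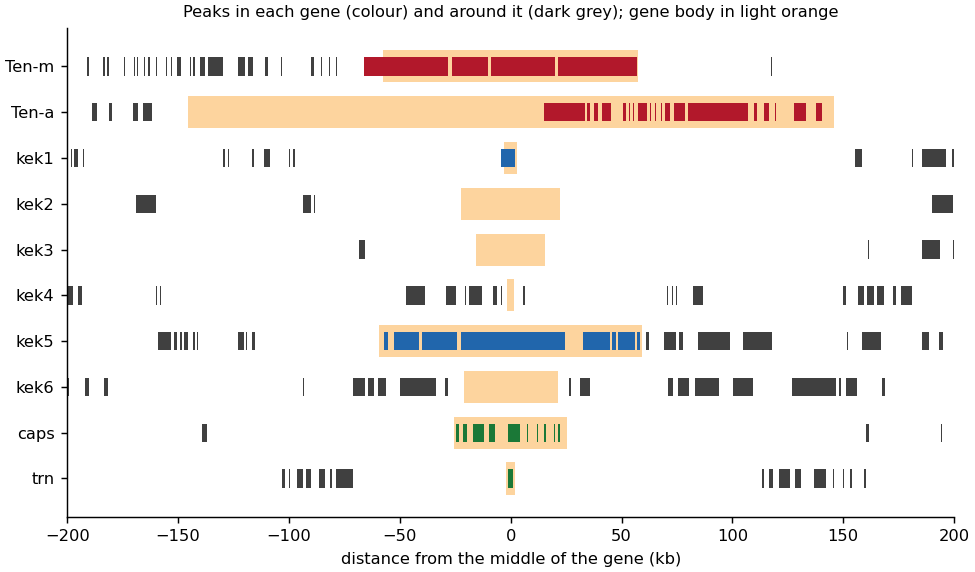
Peaks up to 200 kb from the middle of each gene (x axis, kb), coloured inside the named gene and dark grey outside it, with the gene body in light orange; the grey peaks on the right of the trn row are those of caps. Empty stretches surround kek1, kek2, kek3, caps and trn, whereas kek4 and kek6 lie between grey peaks.

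The paired genes caps and trn lie on 3L with 111 kb between them, and both carried peaks. In trn (3L 13114271 to 13118077, 3.81 kb) a single peak of 2000 bp lay in the interior, 880 bp and 927 bp from the ends, and covered 52.5% of the gene. That share fell to 34.4% when the gene was widened by 1 kb at each end, since the flanks hold no peak. In caps (3L 13228692 to 13279642, 51.0 kb), 12 peaks of 150 to 5400 bp, with a median of 1025 bp, covered 38.4%. Dropping the peaks under 1100 bp left 6 of them, with 34.2% of the gene covered, and joining peaks over 2 kb raised the covered share to 50.05%.

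Coverage in caps was highest in its low-coordinate and middle parts, with 82.1% in part 6 of 10 equal parts and at most 24.5% in each of the last 4. The nested gene CG32119 was covered to 21.0% by a peak that it shares with caps, and a nested tRNA gene was uncovered. No peak lay in the 111 kb between trn and caps. Outside the pair, the nearest peaks lay 69.3 kb below trn and 134.7 kb above caps. Of the 100 kb below trn, 16.3% was covered, all of it beyond that distance.

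The 6 genes with peaks differed widely in peak width. All 4 peaks of Ten-m and 4 of the 8 peaks of kek5 were at least 10 kb wide, as were 2 of the 22 peaks of Ten-a and none of the 12 of caps. In all, 10 of the 48 peaks (20.8%) were of this width, compared with 4.74% of all 6914 peaks in the list. The median peak width was 1875 bp over the 48 peaks and 1100 bp over the list (quartiles 250 and 3050 bp). These comparisons with the whole list were not matched for gene length. All 10 of the wide peaks lie in Ten-m, kek5 and Ten-a, whose covered sequence was already known when the genes were chosen. The larger share of wide peaks therefore cannot be read as a trait of the group.

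**Figure D4:**
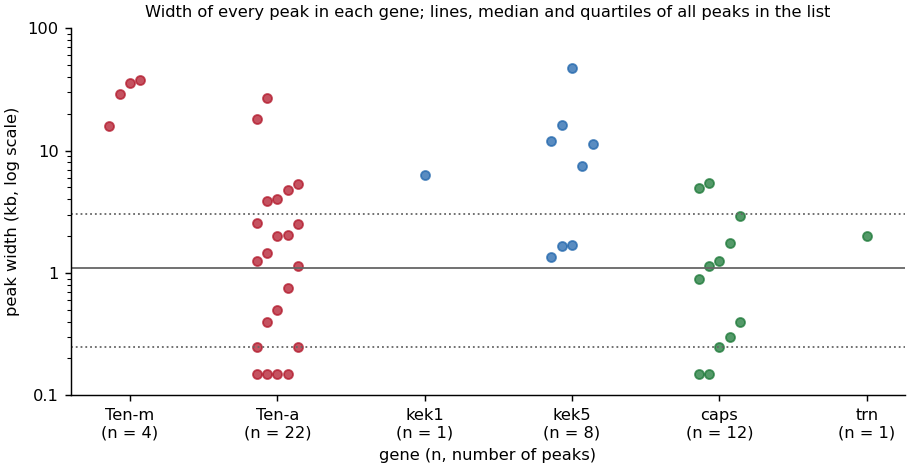
Width of every peak (points, kb, log scale) in the 6 genes with peaks, with the median (solid line, 1.1 kb) and quartiles (dotted lines) of all 6914 peaks of the list. All peaks of Ten-m lie above 10 kb, while those of caps reach 5.4 kb at most and those of Ten-a run from 0.15 to 27.05 kb.

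Against protein-coding genes within 25% of their own length, Ten-m and kek5 were at the top. Each of the 89 genes as long as Ten-m had a lower covered share, with a median of 2.24% (quartiles 0% and 28.1%). Of the 86 genes as long as kek5, 83 were lower, as were 231 of 284 for caps, 1258 of 1392 for kek1 and 1427 of 1915 for trn. Ten-a had only 2 genes of like length, both at 0%. The genes whose covered share was closest to that of Ten-m among those of like length were heca (85.5%), br (85.3%) and kek5 itself. Closest to kek5 were klar (82.8%, also with 8 peaks), br and heca. All values in this paragraph come from the same list by which the genes were known, and they describe it without a test.

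Other cell-surface or secreted proteins with leucine-rich repeats were likewise divided into genes with and without peaks. Of 24 such genes outside the 10, 10 (41.7%) had a peak, 6 were covered over at least 50% and the median covered share was 0%. That count is close to the 38.3% of all protein-coding genes with a peak. It is below the 57.0% in the length decile that holds the median length of this list. Among Toll-family receptor genes, Tollo (97.5%), 18w (93.7%) and Toll-7 (89.5%) were almost wholly covered, whereas Tl was covered to 15.1% and Toll-4, Toll-6 and Toll-9 had no peak. Almost wholly covered too was the Notch pathway gene Gp150 (89.9%), and wdp was covered to 68.9%. The homophilic adhesion gene Con (142 kb) and haf (54.3 kb) were the longest without a peak.

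Other adhesion receptors had peaks in 16 of 20 genes (80%), with a median covered share of 37.6%. At least 50% of the body was covered in 8. The share with a peak was 38.3% over all protein-coding genes and 51.9% in the longest decile, which holds the median length of this list. By the 1 bp rule the 16 include hbs, covered to 0.976%, and kirre, covered to 1.69%. The gene rst (26.9%) lies within kirre, so its peaks were counted for both genes. The cadherin genes ft (96.8%) and shg (96.1%) and the immunoglobulin superfamily genes Fas3 (96.8%), ed (91.0%) and Lac (90.3%) had the largest shares. No peak was found in the neural cadherin gene CadN (131 kb) or in fred (88.8 kb), the paralogue of ed. As with the Kekkons, closely related genes could thus stand at opposite ends.

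Of 14 genes of EGF receptor and BMP signalling, the pathways on which Kek1 and Kek5 act, 12 (85.7%) had a peak. At least 50% of the body was covered in 5, and the median covered share was 42.2%. The share with a peak was 38.3% over all protein-coding genes and 57.0% in the length decile that holds the median length of this list. The receptor gene Egfr itself was covered to 74.6%, the BMP ligand gene gbb to 97.7%, the BMP receptor genes wit and put to 74.0% and 68.9%, and the Smad gene Mad to 50.04%. The ligand gene dpp and the ligand-processing gene rho had no peak. The median length of the genes was 10.8 kb in the leucine-rich repeat list, 51.7 kb in the adhesion list and 11.3 kb in the signalling list, compared with 2.16 kb over all protein-coding genes, and no list was matched for length.

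**Figure D5:**
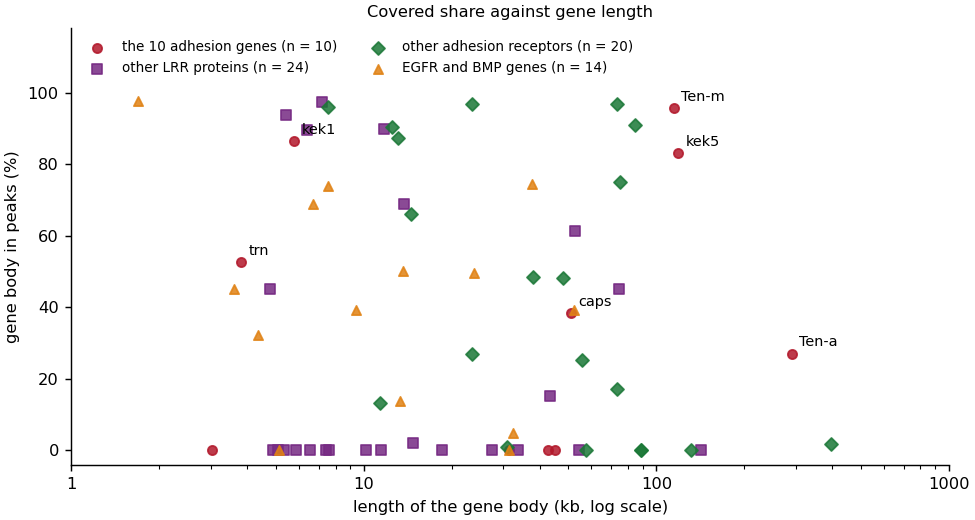
Covered share (%) against gene length (kb, log scale) for the 10 adhesion genes, named where they had a peak, and for 3 lists of related genes, 1 point per gene. Genes at 0% and genes covered over most of their body occur at short and long lengths alike, and the 4 unnamed points at 0% among the 10 are kek2, kek3, kek4 and kek6.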

How the data were processed

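The single file analysed is the authors' deposited peak list, which gives every peak a chromosome and, as its other values, 2 boundaries and a width in bp. No score, fold or value per library is given. Widths equalled end minus start plus 1 throughout, so positions count from 1, and boundaries fell at steps of 50 bp. The build is dm6, and Bowtie2, SAMtools, bedtools, edgeR and deepTools are named, per the submitters' processing notes, without roles. How peaks were called, at which threshold and whether replicates were pooled is not given in the sources used here. Of 6914 peaks, 2 on Y were left out of the gene values.

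Gene positions came from the NCBI RefSeq table of Release 6, the same build, which has no strand, exons or sequence; the planned count of peaks at gene starts was therefore not made. Peaks were intersected with gene bodies in Python 3.11.15 (pandas 2.3.3), and the code was tested on simulated intervals. The members, related lists and markers were chosen with earlier results of these data known. Genes outside the 10 were named by rule: those that overlap a member or share its peak, neighbours, the 3 closest in covered share to Ten-m and kek5, and in each list up to 5 covered over 50% and the 2 longest without a peak. The neighbours Zmynd8 and CG9426, the Toll-family genes Tl, Toll-4, Toll-6 and Toll-9, and the markers vg, wg and pnr, were named after their values were seen. So were the adhesion genes hbs, kirre and rst. Of the names listed, fmi matched no gene (it is in the table as stan).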

Additional observations from a re-analysis of the deposited data

How the results depend on the processing

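The same 6 genes had a peak in 5 of the 6 other settings for the overlap, the gene body and the peaks, and 4 when at least 50% of a gene had to be covered. The background moved more. Counted as having a peak were 27.9% of protein-coding genes by the midpoint of the peak, 18.3% with at least 50% of the gene covered and 27.0% with at least 50% of a peak in the gene. The share was 28.4% with peaks at or above the median width, 33.0% without sequence shared with another protein-coding gene, 47.5% with bodies widened by 1 kb and 33.9% over all annotated genes. The summed covered share of the 10 bodies (44.4%) was 49.4% with peaks joined over 2 kb, 45.8% without shared sequence and 43.5% with widened bodies. Ten-m stayed first and Ten-a last of the 6 in all 4 settings tried for covered share. kek5 passed kek1 when peaks were joined and when bodies were widened, where caps also passed trn. No paired analysis was possible because the list holds no value per library, and for the same reason no replicate could be left out. Strength of signal within a peak and differences between genotypes cannot be read from peak positions.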
